A study of Mus musculus with 49 samples.

Results

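Reads of Wdfy1, Gm11223, Gm10036, Gm26825, Gm15459, Tdpx-ps1, Ren1, Serpina3f, Serpina3m and Rps13-ps1 in mouse hippocampus were near-absent, or lower, in one colony of mice and present in another. These 10 genes, grouped under the name line-marking pseudogenes and copy-variable genes, were chosen from 38355 counted genes. The choice compared endophilin A knockout lines with separate wild-type mice, library by library, so that difference is described here and not tested. The name is only that of the group. Copy number was not measured, and at day 0 Ren1 alone of the 10 had ranges that did not overlap between the colonies. RNA carrying a poly-A tail was sequenced from 49 hippocampus samples. The age labels gave postnatal day 13 to 21 for endoA1A2 double knockouts (DKO, n = 7), littermate controls labelled KOWT (n = 7) and wild type controls (WT-DKO, n = 10). They gave day 0 for endoA1A2A3 triple knockouts (TKO, n = 9), littermate controls labelled KOWTKO (n = 8) and wild type controls (WT-TKO, n = 8). A growth label calls all 49 newborn, against the older age label, and ages here follow the age label. The labels name no strain, sex, allele type or clone, they say that no treatment was given, and they do not say whether each sample was its own animal. P-values therefore cover only the spread between samples, possibly a technical one. Comparisons of one age share their control samples.

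Processed pseudogenes are copies of a spliced RNA that was reverse-transcribed and inserted elsewhere in the genome. They lack introns, stay close in sequence to the coding gene they were copied from, and inbred mouse strains differ in which copies they carry and in single bases of the coding genes. A short read that differs between a coding gene and its copy at few bases can be counted on either. Families of neighbouring duplicated genes, such as the mouse Serpina3 serpins, and the renin locus also vary in gene number between mouse strains.

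Sh3gl2, Sh3gl1 and Sh3gl3 encode endophilins A1, A2 and A3, which bend membranes during synaptic vesicle endocytosis, and they served as the check of the labels. Median Sh3gl2 was 39.2 CPM (reads on the gene per 1000000 reads on genes, scaled by the TMM method within each age) in DKO and 38.1 in KOWT, against 425 in WT-DKO, so both groups of that line had low Sh3gl2. At day 0 the medians were 22.3 CPM in TKO and 19.8 in KOWTKO, against 202 in WT-TKO. Sh3gl1 was at most 1.12 CPM in DKO and 1.35 in TKO, and Sh3gl3 was at most 0.436 CPM in TKO and 0.497 in KOWTKO. Some libraries stood apart from their group in these genes. Sh3gl3 was 6.46 and 6.31 CPM in DKO 5 and 6 and 15.1, 12.6 and 12.3 CPM in KOWT 4, 5 and 6, where the group medians were 59.4 and 60.7. Sh3gl1 was 35.0 CPM in KOWTKO 3, against a group median of 73.6. Libraries held 13116766 to 56977730 reads on genes, and 3 reads, the limit that a count of 0 allows, came to between 0.0534 and 0.224 CPM at day 13 to 21 and between 0.0826 and 0.227 CPM at day 0. That limit covers counting error only. All 8 markers of hippocampal neurons had a median of at least 1 CPM in every group. Summed oligodendrocyte markers ran from 3270 to 15480 CPM in the older libraries and from 42.1 to 81.1 in the newborn ones other than WT-TKO 8, with 728.7, and summed choroid plexus markers from 10.6 to 6114 CPM over all libraries. Their part in the results was not tested. In bulk tissue, fewer cells of a type and less RNA per cell cannot be told apart.

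Of the 10 genes, 6 match another gene closely, and the annotated sequences show how little separates them. Gm11223, on the minus strand at chr4:69925630-69926079 of GRCm38, matched Stmn1 at 99.78% of 450 aligned bases, with 1 mismatch. Stmn1 encodes stathmin, which binds tubulin and destabilises microtubules in growing neurons. Gm10036 matched Rpl11, a protein of the large ribosomal subunit, with 4 mismatches in 534 bases. The GENCODE M21 transcript of Gm15459, at chr5:5781615-5783555 on the minus strand, matched Hspa8, the constitutive heat shock cognate chaperone that uncoats clathrin vesicles, with 5 mismatches in 1941 bases. Gm26825, a long non-coding RNA at chr5:5781530-5783636 on the plus strand, lies over the same stretch and matched the reverse strand of Gm15459 without a mismatch over 1855 bases. Tdpx-ps1, on the minus strand at chr1:99790429-99791025, matched Prdx2, a peroxiredoxin that reduces hydrogen peroxide, with 22 mismatches in 597 bases. Rps13-ps1, at chr8:87047689-87048226 on the plus strand, matched Rps13, a protein of the small ribosomal subunit, with 2 mismatches in 522 bases. The 60-base stretches below come from GENCODE M21 transcripts, in the coding sequence of the coding gene, and were taken because they hold the differing bases by which a read of the copy could be told from a read of the coding gene. Capitals mark the differing bases, and positions are counted from 1 at the left end.
Gm11223, chr4:69925777-69925836, minus strand: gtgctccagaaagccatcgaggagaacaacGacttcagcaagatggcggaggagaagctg
Stmn1, chr4:134472861-134472920, plus strand: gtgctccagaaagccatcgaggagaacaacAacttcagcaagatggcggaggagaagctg
Gm15459, chr5:5783413-5783472, minus strand: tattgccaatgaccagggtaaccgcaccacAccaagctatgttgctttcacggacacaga
Hspa8, chr9:40802006-40802065, plus strand: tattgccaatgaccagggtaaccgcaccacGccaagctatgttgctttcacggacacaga
Tdpx-ps1, chr1:99790904-99790963, minus strand: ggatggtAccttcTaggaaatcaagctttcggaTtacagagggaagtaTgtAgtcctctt
Prdx2, chr8:84970304-84970454, plus strand, across an intron: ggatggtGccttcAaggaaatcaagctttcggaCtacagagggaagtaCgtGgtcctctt
Rps13-ps1, chr8:87048109-87048168, plus strand: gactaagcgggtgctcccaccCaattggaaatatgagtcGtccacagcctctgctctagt
Rps13, chr7:116331557-116332411, minus strand, across an intron: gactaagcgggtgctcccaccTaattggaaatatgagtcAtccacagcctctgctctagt
From coding gene to copy the differences are A31G for Gm11223 and G31A for Gm15459. For Tdpx-ps1 they are G8A, A14T, C34T, C49T and G52A, of which A14T turns an aag codon of Prdx2 into the stop codon tag. For Rps13-ps1 they are T22C and A40G. Wdfy1 and Ren1 had no long match among other transcripts. Serpina3f was 87.8% identical to Serpina3i over 1981 bases and Serpina3m 90.2% identical to Serpina3k over 1659 bases.

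All 10 genes had a higher median in the knockout lines than in the wild types at both ages. The choice used this contrast but set no direction and did not ask for a difference at both ages. At day 13 to 21 the ranges of the 14 knockout-line and 10 wild-type libraries did not overlap for 6 of the 10, Wdfy1, Gm11223, Gm10036, Gm26825, Gm15459 and Tdpx-ps1, where 0.422% of 16114 tested genes had ranges that did not overlap. At day 0, with 17 and 8 libraries, Ren1 alone of the 10 had ranges that did not overlap, where the background was 0.375% of 15715 genes. Because the choice used this contrast, nothing is read from these counts. In the older mice the wild-type median was at most 1.18 CPM for every gene of the 10 except Wdfy1, which was lower there but well expressed. The newborn wild types were not uniform. WT-TKO 1 to 4 were low in all 10 genes, and WT-TKO 5 to 8 were high in differing sets of them, with wild-type levels of Sh3gl1, Sh3gl2 and Sh3gl3 of at least 67.1, 163 and 62.9 CPM. Without WT-TKO 5 to 8, an alternative chosen after the values were seen, ranges at day 0 did not overlap for 3 members, Wdfy1, Ren1 and Rps13-ps1, the last resting on 1 read in TKO 4 and 1 in KOWTKO 7. With only 4 wild-type libraries left, 8.5% of genes met the same condition.

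**Figure D1:**
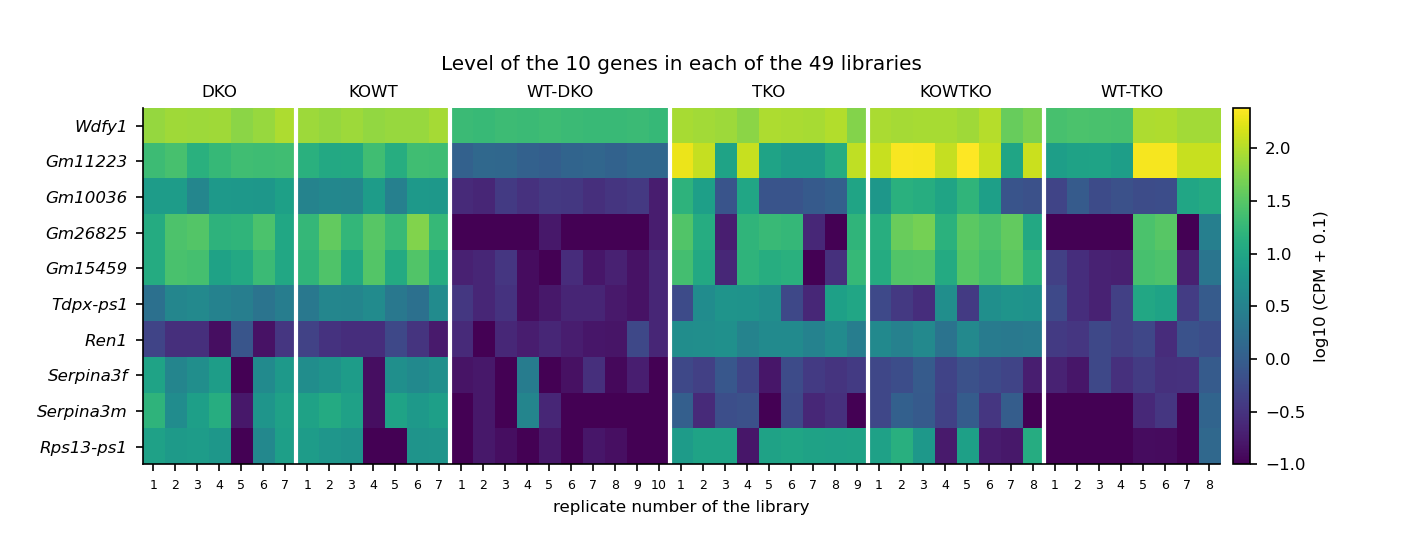
Level of each of the 10 genes (rows) in each library (columns, grouped and numbered by replicate), as log10 of CPM plus 0.1. WT-DKO libraries are dark in all rows except Wdfy1 and, in WT-DKO 4, both serpins, while WT-TKO 5 to 8 are bright in several rows.

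Gm11223, the Stmn1 copy, ran from 13.7 to 25.2 CPM in DKO (median 21.1), from 10.9 to 22.3 in KOWT (median 13.9) and from 0.917 to 1.29 in WT-DKO (median 1.18). The median over the knockout-line libraries was 17.7-fold that of the wild types. DKO 3 and KOWT 1, 2, 3 and 5 lay between 10.9 and 13.9 CPM, and the other 9 libraries lay between 18.4 and 25.2. At day 0 Gm11223 ran from 7.29 to 193 CPM in TKO (median 12.4), from 9.58 to 240 in KOWTKO (median 127) and from 7.75 to 218 in WT-TKO (median 67.5). The newborn values fell into separate ranges. TKO 3, 5, 6, 7 and 8, KOWTKO 7 and WT-TKO 1 to 4 had at most 12.4 CPM, 9 libraries lay between 112 and 128, and KOWTKO 2, 3 and 5, TKO 1 and WT-TKO 5 and 6 lay between 193 and 240. Stmn1 itself ran from 129 to 176 CPM over all newborn libraries and from 14.7 to 23.4 over the older ones, with no such separate ranges. For each 100 reads on Stmn1, Gm11223 had a median of 124 in DKO and 84.8 in KOWT against 5.44 in WT-DKO. The 2 differ at 1 of 450 aligned bases, so few reads over that stretch can be told apart and both counts are uncertain. These numbers are therefore no measure of the RNA level of one against the other.

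Gm10036, the Rpl11 copy, split at day 13 to 21 into the same libraries as Gm11223. The libraries DKO 3 and KOWT 1, 2, 3 and 5 lay between 2.84 and 3.55 CPM and the other 9 of the line between 6.0 and 8.32, against 0.0885 to 0.280 in WT-DKO. At day 0 the pair parted in some libraries. Gm10036 was at most 0.951 CPM in TKO 3, 5, 6, 7 and 8, KOWTKO 7 and 8 and WT-TKO 1 to 6, and 5.99 to 16.2 CPM in the other 12. KOWTKO 8 and WT-TKO 5 and 6 thus had 128, 215 and 218 CPM of Gm11223 but 0.587, 0.510 and 0.523 CPM of Gm10036. Rpl11 ran from 2.67 to 4.70 CPM at day 13 to 21 and from 4.5 to 7.42 CPM at day 0, low for a ribosomal protein gene. Several genes besides Gm10036 match Rpl11 closely, and 5 genes, Rpl11 among them, were near-identical to Gm10036 (identity of at least 95% over 80% of its length), so the counts of both are uncertain.

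Likeness between genes was described by Pearson's r of log2 CPM after each group's mean was subtracted, over the 31 knockout-line libraries, which come from 2 lines at 2 ages and differ in depth. By this measure the gene most like Gm10036 was Gm12901 (r = 0.98), followed by Gm11223 (0.88) and Gm16510 (0.88), and the genes most like Gm11223 were Gm16510 (0.95), Gm10036 (0.88) and Gm12901 (0.87). Gm16510 lies on chromosome 2, Gm10036 on chromosome 18, and Gm12901 on chromosome 4, 53.3 megabases from Gm11223. Stmn1 and Rpl11 lie near each other on chromosome 4, at chr4:134468320-134473843 and chr4:136028265-136053428. Within 5 megabases of Gm11223, 0 of 13 tested genes had r of 0.6 or more in size with it, and within 5 megabases of Stmn1 4 of 180 did. For Gm10036 these counts were 0 of 29 around its own position and 6 of 162 around Rpl11. Over all tested genes the share was 0.280% for Gm11223 and 0.381% for Gm10036. In both sets around the coding genes the largest r was that of Zfp46, a zinc finger gene, at -0.77 and -0.83. This look at neighbours was added after the values were seen.

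**Figure D2:**
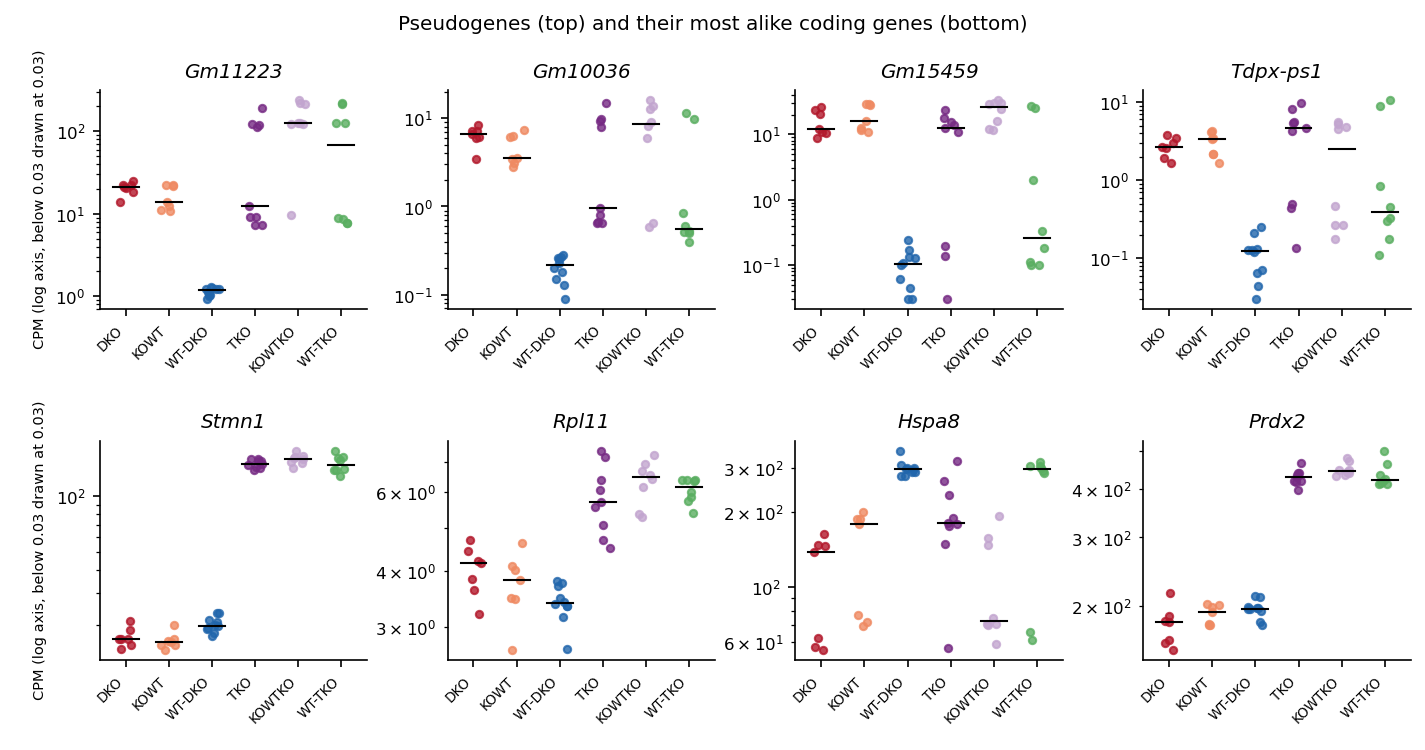
CPM (log axis) in each library of the 6 groups for 4 pseudogenes (top) and the coding gene most like each in sequence (bottom), with a bar at the group median. Gm11223 and Gm10036 spread over separate ranges in the newborn groups while Stmn1 and Rpl11 do not, and Hspa8 falls into ranges of its own.

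Gm26825 and Gm15459 share one stretch of chromosome 5 on opposite strands, and with a library kit that does not mark strand their reads cannot be told apart. The count table held Gm15459 under ENSMUSG00000083840, whose name and position, chr5:5781530-5783607, are given by the authors' deposited table. GENCODE M21 gives that name to another identifier over the same stretch. Gm15459 ran from 8.71 to 25.8 CPM in DKO (median 12), from 10.8 to 29.4 in KOWT (median 16.0) and from 0 to 0.245 in WT-DKO (median 0.104). Gm26825 ran from 10.1 to 29.7, from 17.0 to 54.7 and from 0 to 0.0885 CPM in the same groups, with 0 reads in 8 of the 10 WT-DKO libraries. At day 0 both were near-absent in TKO 3, 7 and 8, at most 0.196 CPM, and in WT-TKO 1, 2, 3, 4 and 7, at most 0.337 CPM. In the other 6 TKO libraries Gm15459 ran from 10.8 to 23.4 CPM and Gm26825 from 12.2 to 28.9, and in KOWTKO they ran from 11.6 to 33.4 and from 10.8 to 47.4. In WT-TKO 5 and 6 Gm15459 had 25.1 and 27.1 CPM, and in WT-TKO 8 it had 1.96. Over the 31 libraries with at least 20 reads on Gm15459, Gm26825 had a median of 1.23 reads for each of its reads, and the 2 genes were each other's nearest by likeness (r = 0.96).

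Hspa8, the coding gene most like both in sequence, was lowest where they were highest. In the older mice Hspa8 ran from 278 to 352 CPM in WT-DKO, with Gm15459 at most 0.245. DKO 2, 3 and 6 and KOWT 2, 4 and 6 had 55.8 to 77.1 CPM of Hspa8 and 20.3 to 29.4 of Gm15459. The other 8 libraries of the line had 137 to 200 CPM of Hspa8. At day 0 TKO 3, 7 and 8, without Gm15459, had 235, 267 and 319 CPM of Hspa8, and WT-TKO 1, 2, 3, 4, 7 and 8 had 285 to 317. KOWTKO 2, 3, 5, 6 and 7, TKO 1 and WT-TKO 5 and 6, with 23.4 to 33.5 CPM of Gm15459, had 56.8 to 75.0 of Hspa8. Over the 31 knockout-line libraries r between Hspa8 and Gm15459 was -0.57, and it was -0.59 with Gm26825. The other 8 newborn knockout-line libraries had 148 to 193 CPM of Hspa8 and 10.8 to 18 of Gm15459. Between TKO and KOWTKO the log2 fold change of Hspa8 was 0.88 ± 0.36 (SE), which did not pass the threshold (adjusted p = 0.164, edgeR). For each 100 reads on genes, libraries had 38.4 to 86.8 alignments without a single place, with the highest value in KOWTKO 7, and the part of such alignments in these levels was not tested. Of 36 tested genes within 5 megabases of Gm15459, Gm26825 alone had r of 0.6 or more in size, and 0 of 84 around Hspa8 did.

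**Figure D3:**
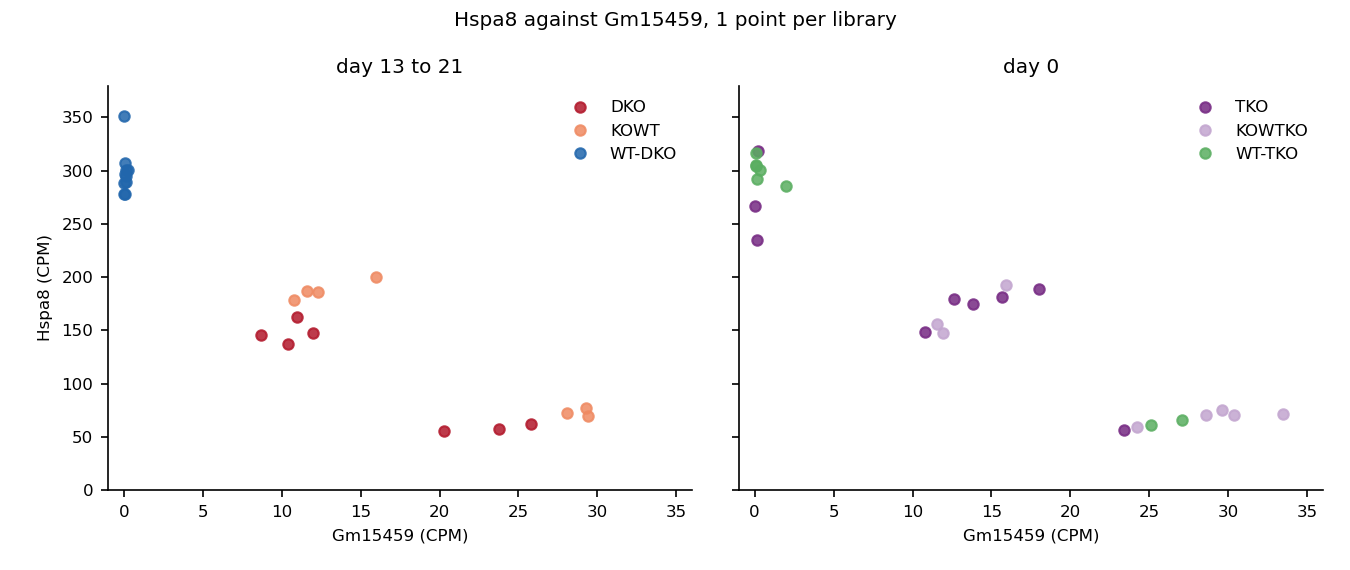
Hspa8 (vertical axis, CPM) against Gm15459 (horizontal axis, CPM), with 1 point per library and day 13 to 21 on the left. At day 13 to 21 Hspa8 ran from 55.8 to 77.1, from 137 to 200 and from 278 to 352 CPM in separate sets of libraries, in the order of falling Gm15459. At day 0 it ran from 56.8 to 75.0 and, with no 1.3-fold step, from 148 to 319 CPM. Newborn libraries with at most 1.96 CPM of Gm15459 had 235 CPM or more.

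Tdpx-ps1, the Prdx2 copy, ran from 1.65 to 3.75 CPM in DKO (median 2.69), from 1.66 to 4.24 in KOWT (median 3.32) and from 0.0286 to 0.253 in WT-DKO (median 0.124). At day 0 it was at most 0.831 CPM in TKO 1, 6 and 7, KOWTKO 1, 2, 3 and 5 and WT-TKO 1, 2, 3, 4, 7 and 8. In 8 other knockout-line libraries it lay between 4.30 and 5.56 CPM, and TKO 8 and 9 and WT-TKO 5 and 6 lay between 8.20 and 10.6. Prdx2 was far more abundant, at 155 to 216 CPM at day 13 to 21 and 398 to 500 at day 0. Tdpx-ps1 had at most 2.57 reads per 100 reads on Prdx2 in any library. The genes most like it were Gm7785 (r = 0.86), a gene on the same chromosome 8.49 megabases away, Mrps30 (0.74), a mitochondrial ribosomal protein, and Tmem9b (0.72). Within 5 megabases of Tdpx-ps1, 0 of 13 tested genes had r of 0.6 or more in size, and within 5 megabases of Prdx2 on chromosome 8, 7 of 105 did, where the share over all genes was 1.02%. Of the 6 peroxiredoxins, all of which were tested, 0 were called in DKO or KOWT against WT-DKO, where 26.1% and 4.41% of tested genes were called. Prdx3 and Prdx5 were lower in TKO than in WT-TKO, by log2 fold changes of -0.16 ± 0.06 (SE) and -0.17 ± 0.05 with adjusted p of 0.0458 and 0.0182 in edgeR's quasi-likelihood test, where 22.9% of genes were called. Prdx5 was also lower in TKO than in KOWTKO, by -0.19 ± 0.05 (adjusted p = 0.0334).

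Rps13-ps1 was at or near 0 in some libraries and at least 3.71 CPM in others, with WT-TKO 8 in between. In DKO it had 0 reads in DKO 5, 3.71 CPM in DKO 6 and 6.11 to 8.43 CPM in the other 5. In KOWT it had 0 reads in KOWT 4 and 5 and 5.34 to 7.38 CPM in the other 5. In WT-DKO it ran from 0 to 0.0655 CPM, with 0 reads in 5 libraries. The 3 absent libraries of the line were all among the 5 with low Sh3gl3. At day 0 Rps13-ps1 was 0.0589 CPM in TKO 4 and 0.0764, 0.0794 and 0.0647 CPM in KOWTKO 4, 6 and 7, and it ran from 6.17 to 13.4 CPM in the other 13 libraries of the line. It was at most 0.0283 CPM in WT-TKO 1 to 7 and 1.28 CPM, 17 reads, in WT-TKO 8. The gene most like it was Rps15a-ps8 (r = 0.995), a pseudogene on chromosome 4, which was also at or near 0 in DKO 5, KOWT 4 and 5, TKO 4 and KOWTKO 4, 6 and 7. Next came Nucb2 (0.74) and Knop1 (0.69), both on chromosome 7 at chr7:116504369-116540584 and chr7:118842222-118856254, near Rps13 at chr7:116331505-116334195. Of 70 tested genes within 5 megabases of Rps13, 8 had r of 0.6 or more in size with Rps13-ps1, of 106 around its own position 1 did, and over all genes the share was 0.304%. Rps13 had at most 2.43 CPM in any library, and 5 genes were near-identical to Rps13-ps1 by the same measure, so both counts are uncertain.

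**Figure D4:**
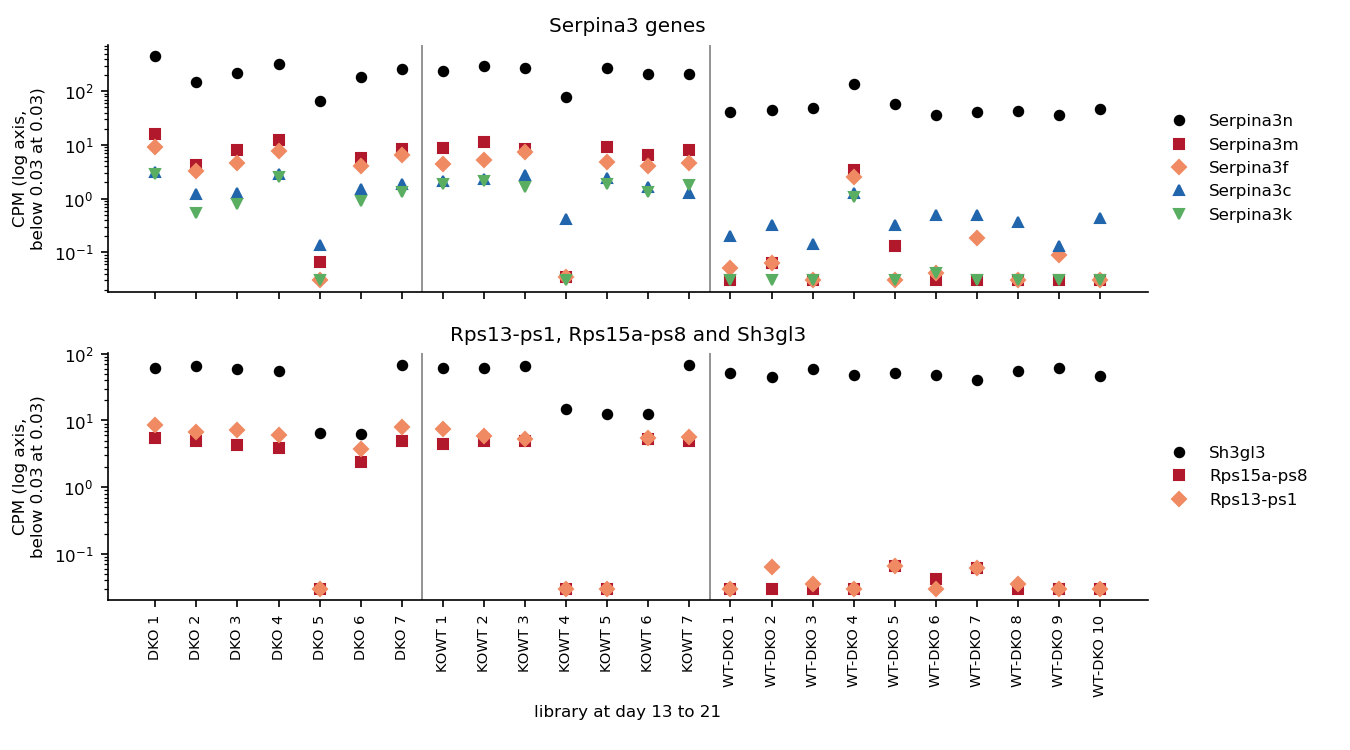
CPM (log axis, values below 0.03 drawn at 0.03) in each library at day 13 to 21 for 5 Serpina3 genes (top) and for Rps13-ps1, Rps15a-ps8 and Sh3gl3 (bottom), with grey lines between groups. DKO 5 and KOWT 4 drop in all 5 serpins, WT-DKO 4 rises in them, and Rps13-ps1 and Rps15a-ps8 are absent in DKO 5 and KOWT 4 and 5.

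Serpina3f and Serpina3m belong to the mouse cluster of serine protease inhibitors related to human alpha-1-antichymotrypsin, at chr12:104214544-104221129 and chr12:104338486-104394257 on the plus strand. Serpina3m starts at the same base as Serpina3k, so reads over the shared stretch cannot be told apart and both counts are uncertain. At day 13 to 21 Serpina3f ran from 0 to 9.15 CPM in DKO (median 4.55), from 0.0348 to 7.29 in KOWT (median 4.66) and from 0 to 2.52 in WT-DKO (median 0.0464). Serpina3m ran from 0.0673 to 15.8 CPM, from 0.0348 to 11.5 and from 0 to 3.4 in the same groups, with 0 reads in 7 WT-DKO libraries. The low ends were DKO 5 and KOWT 4, and the high end of the wild types was WT-DKO 4. Every other library of the line had at least 3.30 CPM of Serpina3f and 4.31 of Serpina3m. At day 0 both were low everywhere, at most 0.843 and 1.13 CPM, so a split could be read from few reads only. Among the newborn libraries of the line, TKO 5 and 9 and KOWTKO 8 alone had 0 reads of Serpina3m.

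Of the other genes of the cluster, Serpina3n, Serpina3k and Serpina3c were also low in DKO 5 and KOWT 4. Serpina3n, the serpin of this cluster best known from reactive astrocytes, had 65.2 CPM in DKO 5 and 79.4 in KOWT 4, against 149 to 448 CPM in the other 12 libraries of the line. It had 136 CPM in WT-DKO 4 and 36 to 58.4 in the other 9. At day 0 Serpina3n was 4.76 and 4.77 CPM in TKO 5 and 9 and 3.93 in KOWTKO 8. The other newborn libraries of the line had 8.35 to 22.7 CPM, WT-TKO 1 to 7 had 2.66 to 6.06 and WT-TKO 8 had 41.1. Serpina3c had 0.134 CPM in DKO 5 and 0.417 in KOWT 4, against 1.24 to 3.17 in the other libraries of the line. Serpina3a, Serpina3b and Serpina3j had a median of 0 CPM in both colonies, so they show nothing of this split. The genes most like Serpina3f were Serpina3m (r = 0.94), Serpina3k (0.92) and Serpina3c (0.87), and those most like Serpina3m were Serpina3k (0.95), Serpina3f (0.94) and Serpina3n (0.90). Of the 9 genes of the cluster that are not among the 10, 4 were tested at day 13 to 21. Serpina3n and Serpina3c were called higher in DKO and in KOWT than in WT-DKO, and Serpina3g in DKO alone. Over all genes 13.1% were called higher in DKO and 2.33% in KOWT. These genes neighbour the chosen serpins, and the choice used the same contrast, so nothing is read from their number. Serpina3n was higher by log2 fold changes of 2.15 ± 0.33 (SE) in DKO and 2.08 ± 0.33 in KOWT, with adjusted p of 7.8e-05 and 0.000523 in edgeR's test. Serpina3k was also called higher in DKO and in KOWT, but it had 0 reads in 8 of the 10 WT-DKO libraries. It overlaps Serpina3m in position, and how reads over both genes were counted is not known. Its count was therefore not taken as separate from that of Serpina3m. Serpina3g, higher in DKO, gave 0.60 ± 0.32 in KOWT (adjusted p = 0.347). Of these 4 genes, 0 were called between DKO and KOWT, where 20.8% of genes were called. The summed level of 4 astrocyte markers was 1580 CPM in DKO 5, where the group ran from 1234 to 1878. It was 1269 CPM in KOWT 4, the lowest of a range up to 1422, and 1469 CPM in WT-DKO 4, where the group ran from 1303 to 1565.

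Ren1 encodes renin, the protease that cuts angiotensinogen, at chr1:133350510-133360325 on the plus strand. Its levels passed 1 CPM at day 0 alone. At day 0 it ran from 2.59 to 4.88 CPM in TKO (median 4.05), from 1.83 to 3.91 in KOWTKO (median 2.71) and from 0.165 to 0.602 in WT-TKO (median 0.377). All 17 libraries of the line were above all 8 wild types, WT-TKO 5 to 8 included, and the ratio of the medians was 10.1. In the older mice its highest values were 0.673 CPM among DKO, 0.449 among KOWT and 0.447 among WT-DKO, the groups overlapped, and it did not pass the low-count filter. Among the genes most like it were Mmp2 (r = 0.68), a matrix metalloprotease, and Ddb1 (0.66), a DNA repair factor. Of the 11 other renin-angiotensin genes, 9 were tested at day 0 and 0 were called in TKO or KOWTKO against WT-TKO, where 22.9% and 20.9% of genes were called, with medians of the log2 fold change of -0.09 and -0.23 against -0.0032 and -0.0068 over all genes. Of the 10 tested at day 13 to 21, 3 were higher in DKO and 2 in KOWT than in WT-DKO, where 13.1% and 2.33% of genes were called higher. Agt, which encodes angiotensinogen, rose by 1.62 ± 0.17 (SE) in DKO and 0.61 ± 0.17 in KOWT on the log2 scale, with adjusted p of 4.1e-07 and 0.0409 in edgeR's test. Agt also rose in DKO over KOWT, by 1.0 ± 0.19 (adjusted p = 0.000632), beside Agtr2 at 0.65 ± 0.22 and, in the other direction, Agtr1a at -0.98 ± 0.24 and Mas1 at -0.32 ± 0.09, 4 of the 10 where 20.8% of genes were called.

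Wdfy1 encodes a protein with a FYVE zinc finger and WD repeats that sits on early endosomes and, in mouse and human cells, links TLR3 and TLR4 to the adaptor TRIF. It lies at chr1:79702262-79776143 on the minus strand. It was the one gene of the 10 that all groups expressed well. At day 13 to 21 it ran from 61.5 to 91.3 CPM in DKO (median 76.1), from 67.0 to 83.7 in KOWT (median 71.9) and from 18.5 to 21.4 in WT-DKO (median 20), and the ratio of the colony medians was 3.72. At day 0 it ran from 56.3 to 96.6 CPM in TKO and from 38.9 to 100.1 in KOWTKO, where the 2 lowest were KOWTKO 7 and 8 with 38.9 and 50.4. WT-TKO 1 to 4 had 24.5 to 26.7 CPM and WT-TKO 5 to 8 had 80.7 to 94.9. The genes most like it were Nbr1 (r = 0.85), an autophagy receptor, Rab21 (0.84), an endosomal GTPase, and Gpr155 (0.83). For Wdfy1 such values were common, since 5.74% of all genes had r of 0.6 or more in size. Of the 9 other WDFY and TRIF signalling genes, all of them tested, 0 were called higher and 2 lower in DKO than in WT-DKO, where 26.1% of genes were called. In KOWT against WT-DKO 0 of the 9 were called, where 4.41% of genes were, and in TKO against WT-TKO 3 were lower, where 22.9% of genes were called. Irf3, a transcription factor downstream of TRIF, was lower in DKO than in WT-DKO by a log2 fold change of -0.55 ± 0.08 (SE) and in TKO than in WT-TKO by -0.53 ± 0.10, with adjusted p of 2.2e-05 and 0.000437. It was also lower in DKO than in KOWT, by -0.50 ± 0.09 (adjusted p = 0.000274), and KOWT against WT-DKO gave -0.05 ± 0.08 (adjusted p = 0.846). At day 0 the littermate controls were lower too, by -0.31 ± 0.10 in KOWTKO against WT-TKO (adjusted p = 0.0273), and TKO against KOWTKO gave -0.22 ± 0.10 (adjusted p = 0.180). In KOWTKO against WT-TKO 3 of the 9 were lower and 1 higher, where 20.9% of genes were called. Tbk1, a kinase that acts on Irf3, was lower there by -0.43 ± 0.09 (adjusted p = 0.00274) and was higher in TKO than in KOWTKO by 0.31 ± 0.09 (adjusted p = 0.0478). Ticam1, which encodes TRIF, was lower than in WT-TKO by -0.32 ± 0.10 in TKO and -0.41 ± 0.11 in KOWTKO (adjusted p of 0.0243 and 0.00956, edgeR). Tlr3 was lower in DKO than in WT-DKO by -0.37 ± 0.12 and in TKO than in WT-TKO by -0.49 ± 0.18 (adjusted p of 0.0265 and 0.0449). Traf3 was higher in KOWTKO than in WT-TKO by 0.18 ± 0.05 (adjusted p = 0.0217).

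The contrasts of DKO with KOWT and of TKO with KOWTKO were not used in the choice of the genes and were tested. DKO against KOWT compares mice without Sh3gl1 with littermates that have it, on the background of low Sh3gl2. The low-count filter kept 9 of the 10 genes and 0 were called, where 20.8% of 16114 genes were called. Unadjusted p was under 0.05 for 2 of them, and for 33.9% of all genes. Gm10036 was higher in DKO by 0.44 ± 0.20 (SE; adjusted p = 0.109, edgeR's quasi-likelihood test) and Gm11223 by 0.31 ± 0.15 (adjusted p = 0.134). The call for Gm10036 depended on single libraries, with adjusted p of 0.0394 without DKO 3 and 0.0366 without KOWT 4. With DKO 5 and 6 and KOWT 4, 5 and 6 left out, 0 of the 9 were called, Gm10036 had 0.69 (adjusted p = 0.0658) and the number of called genes fell from 3347 to 1082. TKO against KOWTKO gave 0 calls among all 10, where 5.09% of 15715 genes were called. Gm11223 had -1.16 ± 0.83 (adjusted p = 0.451), Gm26825 -1.18 ± 0.96 and Gm15459 -1.14 ± 0.90, each spread over the separate ranges described above. Ren1 had the smallest adjusted p, with 0.40 ± 0.17 (adjusted p = 0.185), and it was the one gene of the 10 with an unadjusted p under 0.05, where 21.1% of genes had one. The SE of the 10 genes was large, with a median of 0.75 against 0.09 over all genes, so differences of this size could not be resolved for most of them. The difference between the 2 contrasts was called for 0 of the 10, where 8.9% of 16805 genes were called, and 0 had an unadjusted p under 0.05, where 24.2% did.

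**Figure D5:**
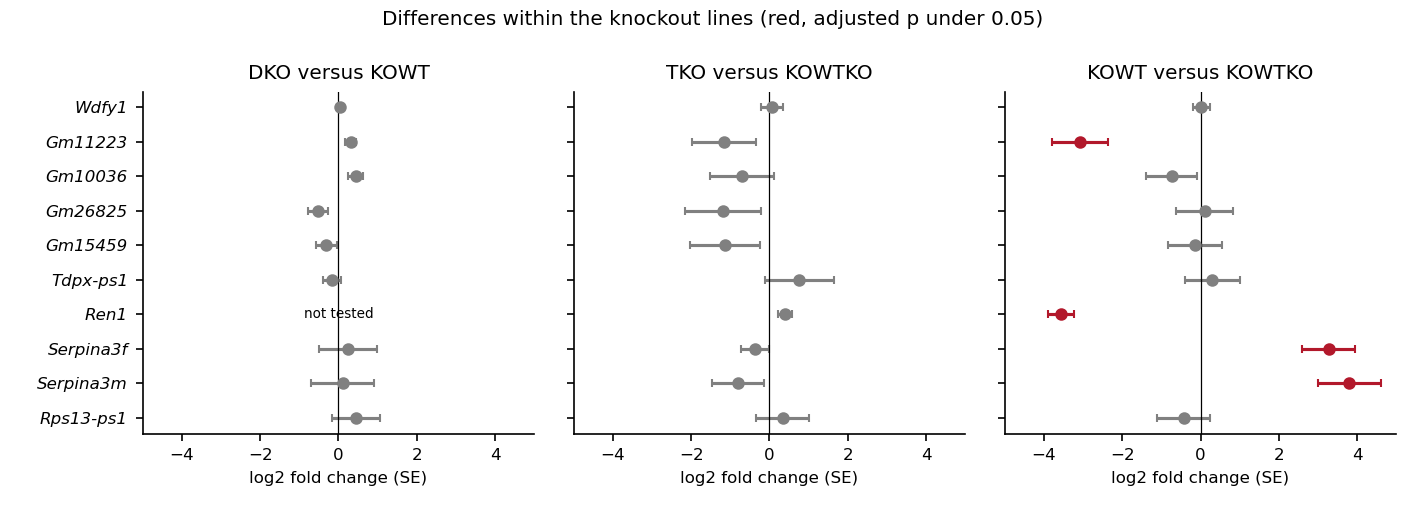
Log2 fold change with its SE for each gene in DKO against KOWT, TKO against KOWTKO, and KOWT against KOWTKO, from edgeR's quasi-likelihood fit. No gene is red in the first pair of panels, and Gm11223 and Ren1 (lower in KOWT) and both serpins (higher in KOWT) are red in the last. The last panel is a description only.

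The ages were compared within littermate controls, KOWT against KOWTKO, in which age and the Sh3gl3 genotype of the line cannot be told apart. High levels in either group entered the choice of the genes, so this comparison is a description and not a test. Ren1 did not pass the low-count filter in the older mice and entered this fit through its newborn levels. The fit called 4 of the 10 genes, where 81.2% of 16805 genes were called, and nothing is read from this count. Ren1 was lower in the older mice by a log2 fold change of -3.57 ± 0.33 (SE) and Gm11223 by -3.07 ± 0.71. Stmn1 was lower by -3.16 ± 0.07, close to its copy. Serpina3f and Serpina3m were higher in the older mice by 3.27 ± 0.67 and 3.8 ± 0.81, beside Serpina3n at 3.92 ± 0.45. The other 6 had log2 fold changes between -0.74 and 0.30 and were not called. The wild types of the 2 ages are given as a description only, because low wild-type values entered the choice of the genes and some genes passed the low-count filter only through the knockout lines. In WT-DKO against WT-TKO the fit over all 6 groups called 7 of the 10, all lower in the older mice, where 81.1% of genes were called and 41.5% called lower. It called 2 with only the compared groups and 2 without WT-TKO 5 to 8, and nothing is read from these counts.

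Libraries of a group differed more in these genes than in most. Around the group means, over the 31 knockout-line libraries, the SD of log2 CPM was 2.64 for Rps13-ps1, 1.99 for Gm26825, 1.86 for Gm15459, 1.81 for Serpina3m and 1.57 for Serpina3f, against a median of 0.21 over 16805 genes. Rps13-ps1 ranked 10th among all genes by this SD, and 8 of the 10 ranked 68th or higher. Ren1 ranked 897th with 0.60 and Wdfy1 5372nd with 0.29. The members also varied largely apart from each other. Of the 45 pairs, r was at least 0.6 in size for Gm11223 with Gm10036, Gm26825 with Gm15459 and Serpina3f with Serpina3m alone.

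Read as numbers, near-absent was taken as a median of at most 0.5 CPM in one colony, and present as a median of at least 1 CPM and 8-fold higher in the other. By this reading 34 of 38355 genes qualified at day 13 to 21, 32 of them higher in the knockout lines, and 26 at day 0, 23 of them higher in the knockout lines. Annotated pseudogenes made up 20 of the 34 and 18 of the 26, while 15.2% of all counted genes were pseudogenes. Of the 10 genes, 7 qualified at day 13 to 21 and 5 at day 0, and 4 did at both ages, Gm26825, Gm15459, Tdpx-ps1 and Rps13-ps1. Wdfy1 and Gm11223 met it at neither age, as their wild-type medians were above 0.5 CPM. The gene just inside the limit at day 13 to 21 was Gm9008, with 1.01 against 0.0353 CPM, and the gene just outside was Gm13453, with 0.989 against 0.0399. At day 0 Gm13453 was just inside, with 1.11 against 0.0794 CPM, and Efcab8 just outside, with 0.825 against 0.102.

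Genes known to differ between inbred mouse strains were a list of 15, of which 11 were tested at day 13 to 21 and 12 at day 0. None of the 10 genes is in it. Ide, the insulin-degrading enzyme, whose copy number varies between stocks of mice, was the one with ranges that did not overlap, with 56.9 to 71.6 CPM in the 14 knockout-line libraries and 74.4 to 144 in WT-DKO. At day 0 Ide ran from 35.2 to 65.1 CPM in the line, from 127 to 137 in WT-TKO 1 to 4 and from 48.1 to 69.0 in WT-TKO 5 to 8. These 4 wild-type libraries thus stood with the knockout lines in Ide as in Wdfy1. Against WT-DKO, 2 of the 11 were higher and 3 lower in DKO, where 26.1% of genes were called, and 1 was higher and 2 lower in KOWT, where 4.41% were. Against WT-TKO, 1 of the 12 was higher and 5 lower in TKO, where 22.9% of genes were called, and 1 was higher and 3 lower in KOWTKO, where 20.9% were. Kcnj9, a potassium channel subunit of the GIRK family, was lower in TKO by -1.16 ± 0.24 (SE; adjusted p = 0.00166) and in KOWTKO by -0.98 ± 0.25 (adjusted p = 0.00862). At day 13 to 21 Kcnj9 was lower in DKO than in WT-DKO by -0.60 ± 0.09 (adjusted p = 5.5e-05, edgeR), and KOWT gave -0.15 ± 0.09 (adjusted p = 0.459). Gabra2, a GABA-A receptor subunit, was higher in DKO than in WT-DKO by 1.25 ± 0.20 (adjusted p = 8.1e-05) and in KOWT by 1.08 ± 0.20 (adjusted p = 0.00173). At day 0 it was not called against WT-TKO, with -0.15 ± 0.39 in TKO and -0.44 ± 0.40 in KOWTKO (adjusted p of 0.807 and 0.465, edgeR).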

How the data were processed

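Values started from the deposited raw read counts, whole numbers for each Ensembl gene and library. The tools CASAVA 1.8.2, STAR 2.3.0e and DESeq2 and the build mm10 come from the submitters' processing notes. No source used here names the counter or its annotation. Per the labels' protocols, the TruSeq kit used does not mark strand. The authors' deposited tables of comparisons give log2 fold changes and p-values, per the file headers, of which only names and positions were used. Names came from GENCODE M21 (GRCm38) for 36602 genes and from the authors' tables for 174. The 5 lines naming no gene were left out, and reads without a feature were 8.89% to 17.5%.

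The members and gene lists were chosen with earlier results of these data known. Named genes were the members, the targeted genes, the 3 genes most like each member (1 is not reported here), its closest sequence match, and called list genes. Counts were tested with edgeR 4.0.16 (filterByExpr, TMM, robust quasi-likelihood fit, Benjamini-Hochberg over all tested genes, adjusted p under 0.05), with the 3 groups of an age, or all 6 groups for comparisons between ages, in a fit. CPM were scaled within each age. Likeness used log2 CPM with a prior count of 2. Ranges were split where neighbouring libraries differed 1.3-fold. Transcripts were compared with blastn 2.17.0 and an E-value limit of 1e-10. The procedure was tested on simulated data. Within a group, all pairs of libraries differed by more than sampling noise. Alternatives were RLE scaling, no low-count filter, DESeq2 1.42.0, limma-voom (limma 3.58.1), a replicate block, fits of only the compared groups, leaving out libraries, and other limits for near-absent.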

Additional observations from a re-analysis of the deposited data

Results flagged for a closer look

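Over the 60 sets of 1 gene and 1 group with any read, 6 single libraries lay far from the rest of their group. Chance flags about 1 in 20 sets of evenly spread values. Many of these sets hold counts near 0 or separate ranges, where that rate need not hold. Serpina3f and Serpina3m reached 2.52 and 3.4 CPM in WT-DKO 4, where the other 9 libraries had at most 0.183 and 0.131. Rps13-ps1 was 0.0589 CPM in TKO 4, below the other 8 triple knockouts. In WT-TKO 8, Rps13-ps1 was 1.28 CPM and Serpina3m 1.13, above the other 7 libraries. WT-TKO 8 also had 728.7 CPM of the summed oligodendrocyte markers, where the TKO and KOWTKO libraries had at most 81.1, and 41.1 CPM of Serpina3n. The part of these in its values was not tested. Ren1 was 0.447 CPM, 10 reads, in WT-DKO 9.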

How the results depend on the processing

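Of the 1230 alternative fits of a single gene, 1186 kept their direction and their side of the threshold, 7 lost and 4 gained a call, and 33 changed sign. For DKO against KOWT the count of called members went from 0 to 1 with the replicate block (Gm26825 at -0.50), where Serpina3f and Serpina3m turned to -0.12 and -0.3176, and ranged from 0 to 1 when single libraries were left out. Same-numbered libraries showed little shared deviation in most pairs. For DKO with KOWT r ran from -0.0160 to 0.434 (median 0.0653) and was over 0.1 in 3 of 7 pairs. For TKO with KOWTKO it ran from -0.102 to 0.191 (median -0.0143) and was over 0.1 in 2 of 8 pairs. The main fits did not take the numbers to pair samples, and whether they do was not settled. The block turned Gm26825 in KOWT against KOWTKO to -0.2845. Genes called in DKO against KOWT went from 3347 to 2228 with only the compared groups and 1082 without the 5 libraries low in Sh3gl3. Those in TKO against KOWTKO went from 800 to 483 with no low-count filter and 1246 with DESeq2, and those in the difference of the contrasts from 1496 to 883 with no filter. Among the wild types, whose low values entered the choice of the genes, the called members went from 7 to 4 with limma-voom, 2 with only the compared groups and 2 without WT-TKO 5 to 8. There limma-voom turned Serpina3f and Serpina3m to -1.537 and -0.4979, and leaving out WT-TKO 5 to 8 turned Gm26825 and Rps13-ps1 to 1.735 and 2.496. limma-voom gave -0.1705 for Rps13-ps1 in the difference of the contrasts. Members with ranges apart at day 0 went from 1 to 3 without WT-TKO 5 to 8. The cause of these moves was not tested.

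Leaving out single libraries gave 470 to 811 genes in KOWT against WT-DKO (lowest without KOWT 3), 330 to 1444 in TKO against KOWTKO and 985 to 1859 in the difference of the contrasts (lowest without DKO 6). In TKO against KOWTKO the count was 465 without TKO 8, 484, 425, 471 and 330 without KOWTKO 1, 2, 3 and 5, and 1444 without KOWTKO 7. Members with ranges apart at day 0 were 1 to 2 (2 without WT-TKO 8). Log2 fold changes that changed sign ran from -0.1625 to 0.3158 for Serpina3m and from -0.02152 to 0.0721 for Wdfy1 in DKO against KOWT, and from -0.0321 to 0.1259 for Wdfy1 in TKO against KOWTKO. In WT-DKO against WT-TKO they ran from -2.454 to 0.7815 for Serpina3f, from -3.017 to 2.512 for Serpina3m and from -2.13 to 0.8623 for Rps13-ps1. In KOWT against KOWTKO they ran from -0.0723 to 0.0841 for Wdfy1 and from -0.1606 to 0.252 for Gm26825, and in the difference of the contrasts from -0.1 to 0.05656 for Wdfy1 and from -0.1667 to 0.3139 for Rps13-ps1. Members below 1 CPM rest on few reads, and a count of 0 allows up to 0.227 CPM.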

Other observations

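Genes other than the 10 that met the numeric reading, named after their values were seen, were mostly further pseudogenes. Rps15a-ps8 had medians of 4.68 CPM in the older knockout-line libraries and 7.16 in the newborn ones against 0 in both wild types. Gm13394 had 56.0 against 0.0776 CPM and Rps3a3 28.6 against 0.116 CPM at day 0. Gm9825 had 4.81 against 0.0628 CPM at day 13 to 21 and 13.6 against 0.190 at day 0. At both ages 15 genes met the reading, 4 of them among the 10.

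A few genes went the other way. Trim12a, a member of the Trim5 family of restriction factor genes, had a median of 0 CPM in the older knockout lines against 1.99 in WT-DKO, and Gm20457 had 0 against 1.46. At day 0 Gm10704 had 0.280 against 3.98 CPM and Gm17414 0.0623 against 3.04. The targeted gene Sh3gl3, with 0.232 against 60.3 CPM, is also counted among the genes that met the reading at day 0.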
